A study of Mus musculus with 8 samples.

Results

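Cholesterol and fatty acid synthesis was followed through 34 genes in cells isolated from mouse kidney. The members were taken by gene name: 5 regulators of the pathway, 18 enzymes of sterol synthesis, 1 sterol carrier, 8 enzymes that make, elongate or desaturate fatty acids and 2 sterol exporters. All 34 were found among the 55304 genes of the count table, and all 34 were among the 17440 genes that passed the filter on low counts. The cells were labelled as positive for DBA (Dolichos biflorus agglutinin), a plant lectin that binds collecting duct epithelium. The labels' protocols also mention whole kidney, so the material is not certain. The samples came from wild type (WT) mice and from mice with autosomal dominant polycystic kidney disease (ADPKD), in which tubules widen into fluid-filled cysts. Mice of each genotype received either vehicle (DMSO) or 666-15, a small molecule inhibitor of the cAMP-responsive transcription factor CREB, which gave 4 groups of 2 libraries. The dose was 5 mg/kg of 666-15, given daily for 5 days and followed by 2 days without dosing, starting at postnatal day 11 and going on for 3 weeks. The labels name neither the gene altered in the ADPKD mice nor their strain, age at collection or sex, and do not say whether animals were pooled or whether each library stands for its own animal. The p-values therefore measure only the spread between these libraries, which may be technical.

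Total counts per library ranged from 15108793 to 19702638, and the members together held 0.173% to 0.245% of them. Levels are given as CPM, the usual depth-scaled count unit, adjusted by the trimmed mean of M values (TMM), for each library or as a group mean ± SD (n = 2). Log2 fold changes carry the SE of the edgeR quasi-likelihood fit. A gene was called at an adjusted p below 0.05. The labelled cell type was checked on its markers. Aqp2, the vasopressin-regulated water channel of collecting duct principal cells, was present in all 4 groups, at 343.5 ± 96.3 CPM in vehicle-treated WT cells. The proximal tubule marker Slc34a1 was at 3729 ± 329 CPM in the same libraries and at 4.18 ± 0.39 CPM in vehicle-treated ADPKD cells. The 15 proximal tubule markers held 1.62% to 1.66% of counts in vehicle-treated WT, 0.535% to 0.663% in inhibitor-treated WT, 0.0291% to 0.0358% in vehicle-treated ADPKD and 0.0371% to 0.0408% in inhibitor-treated ADPKD libraries. The 9 principal cell markers held 0.109% to 0.147%, 0.6% to 0.606%, 0.152% to 0.186% and 0.191% to 0.225% in the same order. Of these 9, Avpr2 was near 0 in all 4 groups, with group means of 0.0259 to 0.0746 CPM. In these bulk samples, fewer cells of a type and less RNA per cell cannot be told apart, which holds for every result below. The 6 adipocyte markers held at most 0.00033% of counts in any library, and of the genes that define fat cells Adipoq had 0 to 3 counts per library and Plin1 0 in 7 libraries and 11 in vehicle-treated ADPKD replicate 1. The female-specific transcript Xist reached 17688 counts in inhibitor-treated WT replicate 2, which had 0 counts of the Y-linked Ddx3y. In the remaining 7 libraries Xist stayed at 8 counts or fewer and Ddx3y at 1776 or more, so sex was not balanced in comparisons that use inhibitor-treated WT cells.

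As background, cells make cholesterol from acetyl-CoA through mevalonate and squalene, and make fatty acids from the same precursor through malonyl-CoA. Both routes are driven by the sterol regulatory element binding proteins SREBP-1 and SREBP-2, encoded by Srebf1 and Srebf2. SCAP escorts these proteins from the endoplasmic reticulum to the Golgi when membrane cholesterol is low, and INSIG proteins hold SCAP back when it is high. SREBP-2 favours the sterol genes and SREBP-1c the fatty acid genes. Sterol-loaded cells instead raise the exporters Abca1 and Abcg1 through the liver X receptors.

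Compared per length of the longest annotated transcript, the most abundant members in vehicle-treated WT cells were Hmgcs1 at 56.8 CPM per kb, Cyb5r3 at 50.8 CPM per kb and Acly at 48.2 CPM per kb. The least abundant was Fdps, which makes farnesyl diphosphate, at 0.917 CPM per kb and 33 to 53 counts in WT libraries. Of the annotated exonic bases of Fdps, 26.7% are shared with the gene model Gm43738 on the same strand, which had 0 counts in every library, so the Fdps level is uncertain. Fdft1 shares 18.3% of its exonic bases with Ctsb on the opposite strand, which had 11941 to 20190 counts per library. The use of strand in counting is not given in the sources used here; Fdft1 values are therefore also uncertain. Tm7sf2 shares 12.1% of its exonic bases with Vps51 on the same strand, which had 331 to 625 counts per library against 35 to 312 of Tm7sf2, so its values are uncertain as well.

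**Figure D1:**
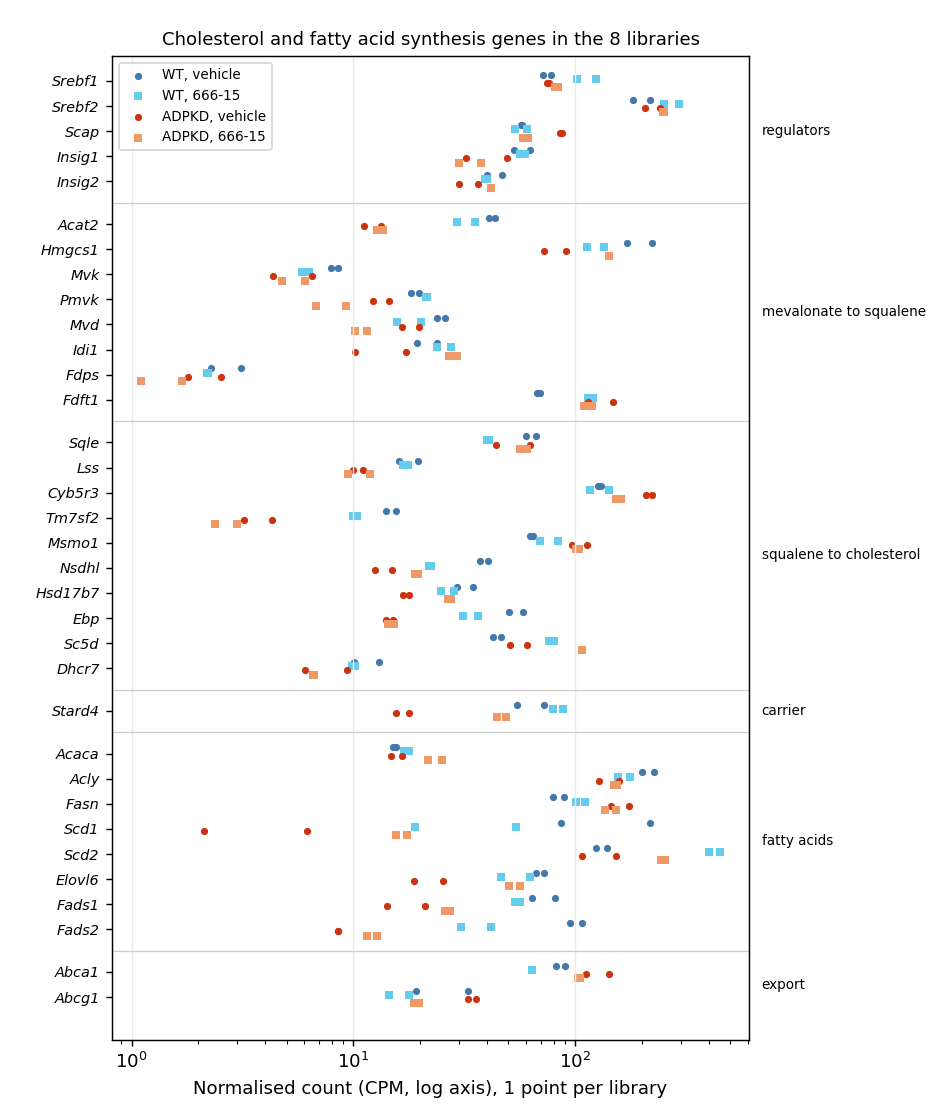
Normalised counts (CPM, log axis) of the 34 members in each of the 8 libraries, 1 point per library, coloured by group and ordered by role. Fads2, Acat2, Ebp and Tm7sf2 are among the members that lie lower in all 4 ADPKD libraries than in all 4 WT libraries. Scd1 is the member whose 2 libraries of a group lie farthest apart.

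The effect of the ADPKD genotype was read from the libraries given vehicle. Most members were lower in ADPKD cells, with the lowest log2 fold changes for the desaturase genes Scd1, Fads2 and Fads1, the sterol enzyme genes Tm7sf2 and Ebp and the carrier gene Stard4. Of the 34 members 25 were called, against 56.4% of all genes tested. They comprised 18 lower members, against 27.6% of all genes, and 7 higher members, against 28.8%. The median log2 fold change was -0.51 over the members and 0.05 over all genes. Of the 18 enzymes of sterol synthesis 10 fell, 4 rose and 4 did not pass. Of the 8 fatty acid enzymes 5 fell, 1 rose and 2 did not pass. Proximal tubule markers were also far lower in these ADPKD libraries, as given above. Thick ascending limb markers held 0.674% to 0.683% of counts in WT and 0.0328% to 0.0335% in ADPKD libraries, and distal tubule markers 0.234% to 0.253% and 0.0133% to 0.0156%. Intercalated cell markers held 0.0549% to 0.0559% and 0.00916% to 0.0117%, podocyte markers 0.0709% to 0.0736% and 0.0179% to 0.0191%, and stromal markers 0.0131% to 0.0172% and 0.0333% to 0.0577%. The part of these cell types in the member values was not tested.

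Fads2, the delta-6 desaturase that opens the route to long polyunsaturated fatty acids, was at 107 and 94.7 CPM in vehicle-treated WT libraries and at 8.49 and 8.56 CPM in vehicle-treated ADPKD libraries. The groups were far apart, and Fads2 fell by 3.56 ± 0.17 on the log2 scale (adjusted p = 2.27e-09). Its neighbour on chromosome 19, the delta-5 desaturase gene Fads1, was at 63.7 and 80.8 CPM in WT libraries, against 21.1 and 14.2 CPM in ADPKD libraries. It fell as well (-2.03 ± 0.18, adjusted p = 1.18e-06). Elovl6, which lengthens 16-carbon fatty acids, was at 72.6 and 66.4 CPM in WT libraries, against 25.2 and 18.8 CPM in ADPKD libraries. All of its WT values exceeded its ADPKD values (-1.66 ± 0.17, adjusted p = 4.66e-06).

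Scd1 and Scd2 encode delta-9 desaturases, which put the first double bond into saturated fatty acids, and lie near each other on chromosome 19. Scd1 was at 216 and 86.1 CPM in WT libraries, against 6.16 and 2.11 CPM in ADPKD libraries, groups that did not overlap although the values within each group differed widely. It fell by 5.18 ± 0.94 on the log2 scale (adjusted p = 0.00949), and its call ended without vehicle-treated ADPKD replicate 2 (-4.64, adjusted p = 0.0602). Scd2 was at 124 and 139 CPM in WT libraries, against 153 and 107 CPM in ADPKD libraries, which overlapped, and was not called (adjusted p = 0.94). The 2 genes are close paralogs and reads that match both could be split between them; their handling in the counting step is not stated in the labels.

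The enzymes that start fatty acid synthesis went both ways. Acly, ATP citrate lyase, which supplies cytosolic acetyl-CoA, fell from 227 and 200 CPM to 158 and 129 CPM (-0.58 ± 0.12, adjusted p = 8.79e-04). Fasn, the synthase that builds palmitate, rose from 79.3 and 89.4 CPM to 175 and 145 CPM (0.92 ± 0.12, adjusted p = 2.14e-05). Acaca, the carboxylase that makes malonyl-CoA, averaged 15.3 ± 0.41 CPM in WT cells, against 15.7 ± 1.2 CPM in ADPKD cells, and was not called (adjusted p = 0.874).

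Among the early sterol enzymes, Acat2, the cytosolic thiolase that joins 2 acetyl-CoA, was at 40.9 and 43.6 CPM in WT libraries, against 13.3 and 11.2 CPM in ADPKD libraries (-1.79 ± 0.15, adjusted p = 5.87e-07). Hmgcs1, the HMG-CoA synthase of the next step (GRCm38 chromosome 13, 119690379 to 119708260), was at 171 and 223 CPM in WT libraries, against 90.6 and 72.7 CPM in ADPKD libraries. The lower WT value was still above the higher ADPKD value, and Hmgcs1 fell by 1.27 ± 0.15 (adjusted p = 1.47e-05). Smaller falls were called for the phosphomevalonate kinase gene Pmvk (-0.51 ± 0.18), the decarboxylase gene Mvd (-0.44 ± 0.17) and the isomerase gene Idi1 (-0.65 ± 0.22). The call of Pmvk ended without any of 3 libraries (to -0.42), that of Mvd without any of 5 (to -0.34) and that of Idi1 without vehicle-treated WT replicate 2 (-0.52) or ADPKD replicate 2 (-0.34). Fdft1, squalene synthase, went the other way, from 67.5 and 69.2 CPM to 148 and 114 CPM (0.94 ± 0.12, adjusted p = 2.40e-05). Mvk, mevalonate kinase (-0.60 ± 0.26, adjusted p = 0.0676), and Fdps (adjusted p = 0.51) were not called.

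After squalene, Ebp, Tm7sf2 and Nsdhl fell most. Ebp, the sterol isomerase (chromosome X, 8185329 to 8193512), was at 58.0 and 50.3 CPM in WT libraries, against 15.1 and 14.1 CPM in ADPKD libraries (-1.89 ± 0.14, adjusted p = 1.80e-07). Tm7sf2, a sterol C14 reductase, was at 15.5 and 14.0 CPM in WT libraries, against 4.299 and 3.198 CPM in ADPKD libraries (-1.98 ± 0.24, adjusted p = 1.16e-05). Each gene had clearly separate groups. Nsdhl, which acts in the removal of the C4 methyl groups (chromosome X, 72918557 to 72958514), was at 40.5 and 37.2 CPM in WT libraries, against 14.9 and 12.5 CPM in ADPKD libraries (-1.51 ± 0.15, adjusted p = 1.70e-06). Its partner in that step Hsd17b7 fell by 0.88 ± 0.15 and the lanosterol synthase gene Lss by 0.76 ± 0.19 on the log2 scale. The C4 methyl oxidase gene Msmo1, the first enzyme of the same demethylation, rose instead, from 62.4 and 64.8 CPM to 113 and 97.1 CPM (0.72 ± 0.12, adjusted p = 1.57e-04). Cyb5r3, the cytochrome b5 reductase that passes electrons to several of these enzymes, rose from 131 and 127 CPM to 222 and 208 CPM (0.73 ± 0.11, adjusted p = 6.01e-05). Sc5d, a sterol desaturase, was called higher by 0.33 ± 0.11, a call that ended without any of 5 libraries (0.19 without vehicle-treated ADPKD replicate 1). Squalene epoxidase, Sqle (-0.24 ± 0.15, adjusted p = 0.181), and the 7-dehydrocholesterol reductase gene Dhcr7 (-0.57 ± 0.24, adjusted p = 0.0569) were not called.

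Stard4, which carries cholesterol between membranes in the cytosol, was at 54.5 and 72.0 CPM in WT libraries, against 17.8 and 15.6 CPM in ADPKD libraries and fell by 1.92 ± 0.15 (adjusted p = 2.26e-07). The regulators moved less. Neither Srebf1 (75.0 ± 4.3 CPM in WT, 75.4 ± 0.95 CPM in ADPKD cells, adjusted p = 0.953) nor Srebf2 (199.5 ± 24.2 and 223 ± 24.5 CPM, adjusted p = 0.25) was called. Scap was higher in ADPKD cells, at 85.4 and 87.1 CPM against 57.5 and 57.2 CPM (0.59 ± 0.11, adjusted p = 3.94e-04). Insig1 (-0.51 ± 0.19) and Insig2 (-0.39 ± 0.13) were called lower. The Insig1 call ended without any of 4 libraries (-0.25 without vehicle-treated ADPKD replicate 2) and that of Insig2 without replicate 1 of WT (-0.28) or ADPKD (-0.27) cells. The exporter Abca1 rose from 89.5 and 81.6 CPM to 112 and 142 CPM (0.57 ± 0.12, adjusted p = 0.0011), while Abcg1 overlapped between the groups (33.0 and 19.1 against 35.9 and 32.7 CPM, adjusted p = 0.141). The 9 markers of macrophages, cells that also use these exporters, held 0.00929% to 0.0127% of counts in WT libraries with vehicle. They held 0.028% to 0.0349% in ADPKD libraries with vehicle. The list did not move as one: C1qa rose from 0.573 ± 0.107 to 22.9 ± 2.01 CPM, while Csf1r fell from 64.0 ± 16.1 to 28.8 ± 5.07 CPM. The part of macrophages in the exporter levels was not tested.

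**Figure D2:**
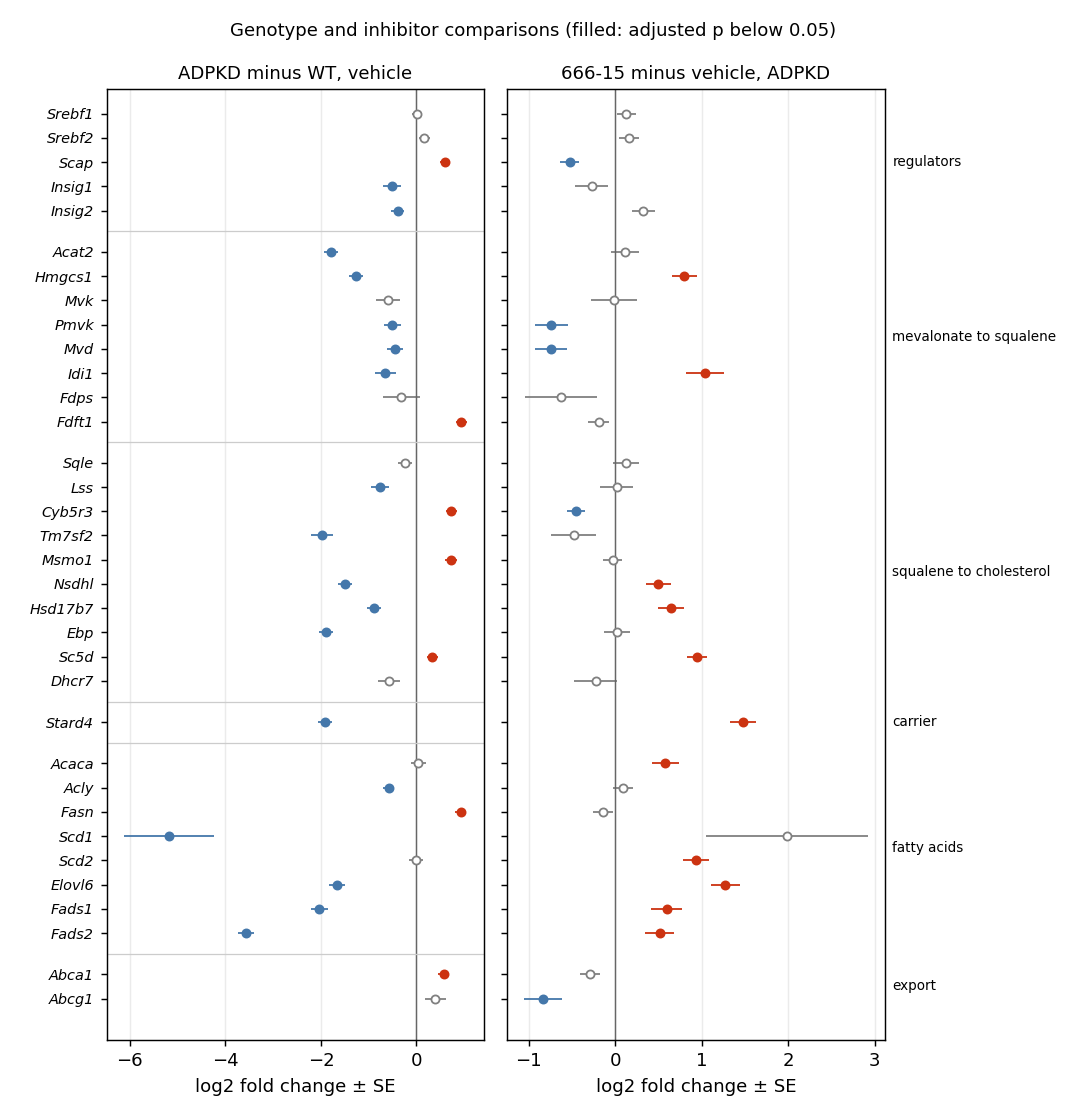
Log2 fold change ± SE of each member for ADPKD minus WT cells on vehicle (left) and for 666-15 minus vehicle in ADPKD cells (right), ordered by role; filled points were called at an adjusted p below 0.05. On the left 18 members are called lower and 7 higher, with Scd1 and Fads2 lowest; on the right 11 are called higher and 5 lower, with Stard4 and Elovl6 the highest called.

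The response of ADPKD cells to the inhibitor was read from 666-15 against vehicle. Stard4, the elongase gene Elovl6, the desaturase genes Scd2, Fads1 and Fads2 and part of the sterol enzymes were higher with the inhibitor, while Scap, Abcg1 and 3 enzymes were lower. Of the 34 members 16 were called, against 41.4% of all genes tested. They were 11 higher members, against 22.3% of all genes, and 5 lower members, against 19.1%. The median log2 fold change was 0.10 over the members and 0.02 over all genes. Of the fatty acid enzymes 5 of 8 rose and 0 fell, and of the sterol enzymes 5 of 18 rose and 3 fell.

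Stard4 had the largest called rise, from 17.8 and 15.6 CPM to 48.6 and 44.2 CPM (1.47 ± 0.15, adjusted p = 1.31e-05). Its inhibitor-treated ADPKD libraries still lay below the 54.5 and 72.0 CPM of vehicle-treated WT libraries. Elovl6 rose from 25.2 and 18.8 CPM to 56.1 and 50.3 CPM (1.27 ± 0.17, adjusted p = 1.28e-04). Scd2 rose from 153 and 107 CPM to 253 and 243 CPM (0.93 ± 0.15, adjusted p = 4.61e-04). Both had separate groups. Scd1 went from 6.16 and 2.11 CPM to 17.4 and 15.5 CPM, and although its groups did not overlap it was not called (1.98 ± 0.94, adjusted p = 0.17). It was called with the replicate block (2.15, adjusted p = 0.0078), with DESeq2 (1.97, adjusted p = 0.0454), without robust estimation (1.98, adjusted p = 0.0215) and with these groups alone (1.95, adjusted p = 0.0099). Acaca rose by 0.58 ± 0.16, Fads1 by 0.59 ± 0.18 and Fads2 by 0.51 ± 0.17. The Acaca call ended without inhibitor-treated replicate 1 (0.48) or vehicle-treated replicate 2 (0.52) of ADPKD cells and with the length trend removed (0.30). That of Fads1 ended without any of 3 libraries (0.35 without vehicle-treated ADPKD replicate 2) and that of Fads2 without any of 4 (0.44 without inhibitor-treated ADPKD replicate 2). The Fads2 call also ended with the filter of at least 5 CPM in 2 libraries (0.43) and with these groups alone (0.48). At 11.5 and 12.8 CPM Fads2 remained far below the WT libraries.

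Among the sterol enzymes Hmgcs1 rose from 90.6 and 72.7 CPM to 142.4 and 141.5 CPM (0.80 ± 0.15, adjusted p = 0.0011). Sc5d rose from 60.7 and 50.8 CPM to 107 and 108 CPM (0.94 ± 0.11, adjusted p = 4.21e-05). Idi1 rose from 17.4 and 10.1 CPM to 29.5 and 27.1 CPM (1.04 ± 0.22, adjusted p = 0.003). In each of these genes both inhibitor-treated libraries exceeded both vehicle-treated ones. Hsd17b7 rose by 0.64 ± 0.15 and Nsdhl by 0.50 ± 0.15. Pmvk (-0.74 ± 0.19), Mvd (-0.74 ± 0.18), Cyb5r3 (-0.45 ± 0.11) and the regulator Scap (-0.53 ± 0.11) fell. Scap went from 85.4 and 87.1 CPM to 61.4 and 58.1 CPM, close to the 57.5 and 57.2 CPM of vehicle-treated WT libraries. Abcg1 fell from 35.9 and 32.7 CPM to 19.8 and 18.7 CPM (-0.83 ± 0.22, adjusted p = 0.0105), and Abca1 was not called (-0.29 ± 0.12, adjusted p = 0.0638). Srebf1, Srebf2, Insig1 and Insig2 were not called either.

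Across all genes, fold changes in this comparison moved with transcript GC content (Spearman correlation -0.35 over 17252 genes, a description, since genes are not independent). The members span 41.9% (Idi1) to 59.1% (Scap) GC. With the trend removed the count of lower members went from 5 to 2. The calls of Scap (-0.05), Cyb5r3 (-0.18), Mvd (-0.27), Pmvk (-0.39), Hsd17b7 (0.37) and Nsdhl (0.31) ended, and Srebf1 (0.56, adjusted p = 5.80e-04) and Srebf2 (0.57, adjusted p = 8.95e-04) were called higher. Stard4, Elovl6, Scd2, Hmgcs1, Sc5d and Idi1 held their call under all 17 alternatives, with or without the trend. Without single libraries, calls ended for Nsdhl (3 libraries, to 0.39), Abcg1 (3 libraries, to -0.76) and Pmvk (-0.52 without inhibitor-treated and -0.62 without vehicle-treated replicate 1). They also ended for Mvd (-0.64 without inhibitor-treated replicate 2) and Cyb5r3 (-0.41 without inhibitor-treated replicate 1). Markers of other cell types moved beside these changes. In the proximal tubule list Slc34a1 rose from 4.18 ± 0.39 to 41.6 ± 0.395 CPM and Lrp2 from 10.1 ± 2.48 to 43.5 ± 9.22 CPM. In the same list Aqp1 fell from 127.5 ± 22.3 to 66.6 ± 25.6 CPM and Ass1 from 87.8 ± 9.24 to 42.7 ± 0.0966 CPM. All remaining genes of the list had higher means with the inhibitor, and the sum of the list, given above, moved less. Endothelial markers went from 0.0824% to 0.103% of counts with vehicle to 0.0215% to 0.0278% with the inhibitor, and podocyte markers from 0.0179% to 0.0191% to 0.00741% to 0.00921%. Intercalated cell markers went from 0.00916% to 0.0117% to 0.0348% to 0.043%, and distal tubule markers from 0.0133% to 0.0156% to 0.031% to 0.0312%. Within the distal tubule list Slc12a3 changed little (25.1 ± 0.84 to 26.2 ± 0.25 CPM) and Pvalb stayed near 0, so other genes carried that rise. The part of all these cell types in the member values was not tested.

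**Figure D3:**
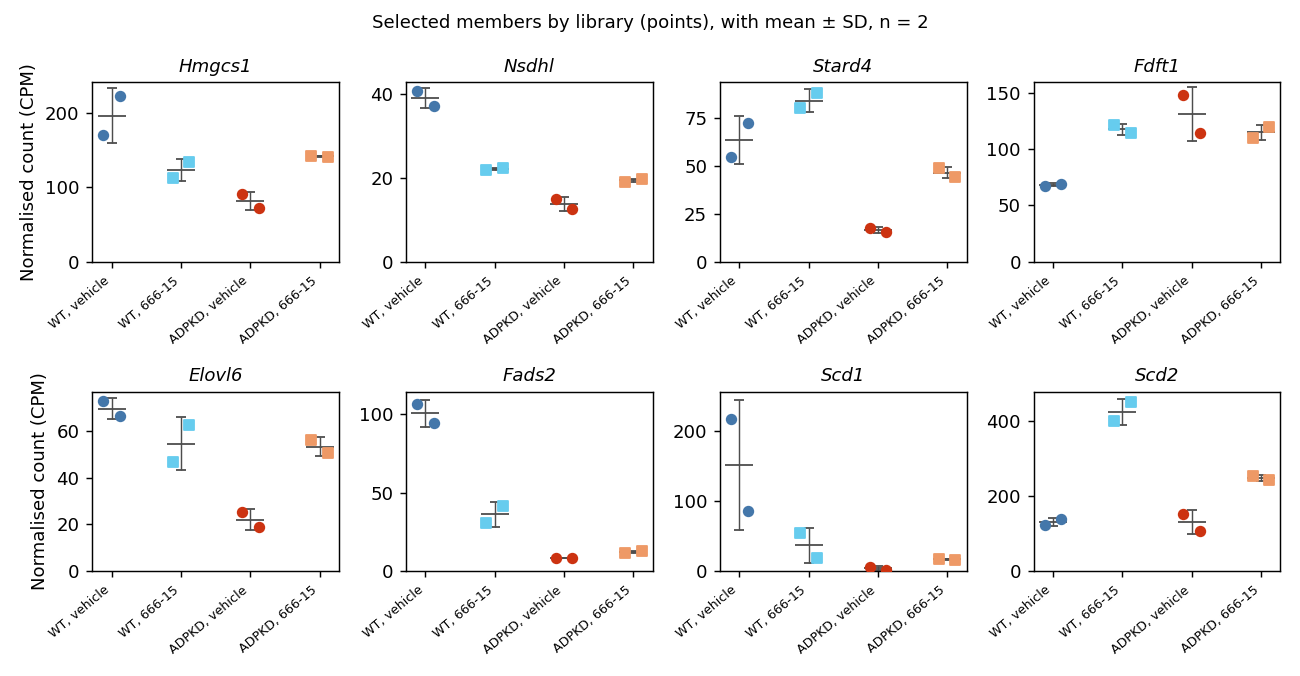
Normalised counts (CPM) of 8 members in each library, with the mean ± SD of the 2 libraries of a group. Hmgcs1, Nsdhl, Stard4 and Elovl6 are lowest in vehicle-treated ADPKD cells, Fads2 is highest in vehicle-treated WT cells, and Scd2 is highest in inhibitor-treated WT cells.

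Of the 18 members lower in vehicle-treated ADPKD cells, 8 were called higher with the inhibitor in ADPKD cells: Hmgcs1, Idi1, Nsdhl, Hsd17b7, Stard4, Elovl6, Fads1 and Fads2. Another 2, Pmvk and Mvd, were called lower in both comparisons, and 8 were not called with the inhibitor. The 2 comparisons share the vehicle-treated ADPKD libraries, so values in those libraries move both. The share of lower members then called higher was 44.4%, near the 41.3% of all genes (1991 of 4819) with the same pattern. Acat2, Ebp and Tm7sf2 were among the members that stayed uncalled, with log2 fold changes of 0.11 ± 0.16, 0.02 ± 0.15 and -0.48 ± 0.26. Their inhibitor-treated ADPKD levels were 13.2 ± 0.53, 14.8 ± 0.64 and 2.68 ± 0.44 CPM.

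The sequence just upstream of some of these members is shown because SREBPs bind sterol regulatory elements next to sites of the factor NF-Y in many sterol gene promoters. Windows from 250 bases before to 50 bases after the start were in the RefSeq table (GRCm38.p6) for 25 of the 34 members and for 6 of the 8 members named above. The 4 shown are those with at least 100 of the 160 bases before the RefSeq start also upstream of the GENCODE start. Each is given on the coding strand. Capitals mark the sterol regulatory element TCACNCCAC and the NF-Y motif CCAAT, read on both strands, so that CCAAT appears as ATTGG where it lies on the other strand. The Hmgcs1 stretch is chr13:119690191-119690350 (+), that of Nsdhl chrX:72918361-72918520 (+), that of Hsd17b7 chr1:169969242-169969365 (-) and that of Elovl6 chr3:129532226-129532354 (+).
Hmgcs1: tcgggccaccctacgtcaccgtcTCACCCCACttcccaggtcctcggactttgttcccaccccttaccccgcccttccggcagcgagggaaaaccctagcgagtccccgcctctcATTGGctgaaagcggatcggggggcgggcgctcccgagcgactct
Nsdhl: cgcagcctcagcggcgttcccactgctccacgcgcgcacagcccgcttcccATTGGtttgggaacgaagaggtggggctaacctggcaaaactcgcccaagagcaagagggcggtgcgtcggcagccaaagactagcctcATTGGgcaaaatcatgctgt
Hsd17b7: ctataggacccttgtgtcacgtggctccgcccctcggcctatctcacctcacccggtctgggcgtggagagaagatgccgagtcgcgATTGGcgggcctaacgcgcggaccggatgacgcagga
Elovl6: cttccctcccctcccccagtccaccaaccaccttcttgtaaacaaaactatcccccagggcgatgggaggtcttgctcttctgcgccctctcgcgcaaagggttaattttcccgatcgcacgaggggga

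In the Hmgcs1 stretch the sterol regulatory element begins 137 bases before the RefSeq start and the CCAAT motif 45 bases before it. The Nsdhl stretch holds CCAAT 109 and 20 bases before the start, Hsd17b7 holds it 73 bases before, and the Elovl6 stretch holds neither motif. Over the whole windows, the sterol regulatory element matched 1 of 25 members, Hmgcs1, and 1.44% of 27025 genes. Its shorter form TCACNCCA, which the longer one contains, matched 3 of 25 members, Hmgcs1, Msmo1 and Srebf2, and 4.97% of genes. CCAAT matched 19 of 25 members and 41.1% of genes. The CREB binding sequence TGACGTCA matched 0 of 25 members and 2.03% of genes, and its core TGACG, which the longer motif contains, matched 8 of 25 and 23% of genes. A match describes these letters and not binding.

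In WT cells Sc5d, Scd2 and Stard4 were called higher and Abcg1 lower with the inhibitor, as in ADPKD cells, while Hmgcs1, Nsdhl and Fads2 were called in opposite directions in the 2 genotypes. Among all WT changes Scd2, Fdft1, Sc5d and both SREBP genes were higher, and Fads2, Nsdhl, Hmgcs1, Ebp and Sqle were lower. Of the 34 members 14 were called, against 25.5% of all genes tested: 6 higher, against 13.9% of all genes, and 8 lower, against 11.6%. The median log2 fold change was -0.23 over the members and -0.01 over all genes. Proximal tubule markers fell and principal cell markers rose in this comparison, as given above. Thick ascending limb markers held 0.674% to 0.683% of counts with vehicle and 0.302% to 0.396% with the inhibitor, and distal tubule markers 0.234% to 0.253% and 0.11% to 0.133%. Endothelial markers held 0.0996% to 0.115% and 0.0561% to 0.0939%, and intercalated cell markers 0.0549% to 0.0559% and 0.101% to 0.143%. The part of all these lists in the member values was not tested. Without inhibitor-treated WT replicate 2, the library of the other sex, the calls of Acly (-0.28), Stard4 (0.33), Abca1 (-0.42) and Abcg1 (-0.56) ended.

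Scd2 was at 124 and 139 CPM with vehicle and at 399 and 449 CPM with the inhibitor (1.69 ± 0.15, adjusted p = 1.15e-05), its highest level in any group. Fads2 fell from 107 and 94.7 CPM to 30.6 and 41.6 CPM (-1.48 ± 0.15, adjusted p = 1.62e-05). Both held under all 17 alternatives, including the one without replicate 2. Scd1 was at 54.1 CPM in inhibitor-treated replicate 1 and 19.0 CPM in replicate 2, below the 216 and 86.1 CPM with vehicle, and was not called (-2.05 ± 0.78, adjusted p = 0.143). Scd1 was called lower with the replicate block (-2.07, adjusted p = 0.0062), with DESeq2 (-2.12, adjusted p = 0.039) and without robust estimation (-2.05, adjusted p = 0.0113). Acly was called lower by 0.36 ± 0.12, a call that ended without any of 4 libraries (-0.27 without vehicle-treated WT replicate 1).

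Among the sterol enzymes Fdft1 rose from 67.5 and 69.2 CPM to 121 and 114 CPM (0.78 ± 0.12, adjusted p = 4.38e-04). Sc5d rose from 42.5 and 46.4 CPM to 76.3 and 80.2 CPM (0.82 ± 0.11, adjusted p = 1.87e-04). Nsdhl fell from 40.5 and 37.2 CPM to 21.8 and 22.3 CPM (-0.82 ± 0.14, adjusted p = 9.92e-04). The groups of these 3 genes did not overlap, and their calls held under all 17 alternatives. Hmgcs1 fell by 0.67 ± 0.14, Sqle by 0.65 ± 0.15 and Ebp by 0.68 ± 0.14 on the log2 scale. The calls of Hmgcs1 (-0.47) and Sqle (-0.57) ended without vehicle-treated WT replicate 2 and that of Ebp (-0.57) without replicate 1 of the same group.

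Srebf1 rose from 71.9 and 78.0 CPM to 124 and 101 CPM (0.59 ± 0.11, adjusted p = 0.0019), held under all 17 alternatives. Srebf2 rose from 182 and 217 CPM to 293 and 252 CPM (0.45 ± 0.12, adjusted p = 0.0124), and its call ended without replicate 1 of the vehicle-treated (0.33) or inhibitor-treated (0.34) WT libraries. Both SREBP genes were thus called higher in WT cells. Of the 18 sterol enzyme genes 4 were called lower and 2 higher, and 12 were not called. Abca1 (-0.42 ± 0.12) and Abcg1 (-0.70 ± 0.22) were called lower. The Abca1 call ended without vehicle-treated replicate 1 (-0.36) or inhibitor-treated replicate 2 (-0.42), and the Abcg1 call ended without any of 5 libraries (-0.25 without vehicle-treated replicate 1). Stard4 passed narrowly (0.41 ± 0.14, adjusted p = 0.0491), and its call ended in 7 of the 9 other settings that keep all libraries (0.35 with RLE scaling, 0.35 with DESeq2) and without any of 4 libraries (0.22 without vehicle-treated WT replicate 1).

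Whether the inhibitor response differed between the genotypes was tested by the interaction, the response in ADPKD cells minus that in WT cells. The 2 responses share no libraries. Of the 34 members 15 were called, against 26.6% of all genes: 9 with the higher response in ADPKD cells, against 13.6%, and 6 with the lower, against 13%. Fads2 (1.99 ± 0.23, adjusted p = 6.27e-05), Hmgcs1 (1.46 ± 0.21, adjusted p = 3.86e-04) and Nsdhl (1.31 ± 0.21, adjusted p = 5.84e-04) were lower with the inhibitor in WT cells and higher in ADPKD cells, each of these changes being called. Elovl6 (1.62 ± 0.24, adjusted p = 4.58e-04), Hsd17b7 (0.90 ± 0.21) and Fads1 (0.99 ± 0.25) were called higher in ADPKD cells and had log2 fold changes of -0.35, -0.26 and -0.39 in WT cells, which were not called. With no filter on low counts Fads1 was called lower in WT cells (-0.40, adjusted p = 0.0317). Without inhibitor-treated WT replicate 2, the library of the other sex, Elovl6 was at -0.59 in WT cells. Stard4 was called higher in both genotypes, by 0.41 in WT and 1.47 in ADPKD cells (interaction 1.06 ± 0.20, adjusted p = 0.0023). Fdft1 had the opposite interaction (-0.97 ± 0.17, adjusted p = 0.0013), being called higher in WT cells and at -0.19 in ADPKD cells. Scd1 had the largest interaction, 4.03 ± 1.21, which was not called (adjusted p = 0.0812). It was called with the replicate block (4.22, adjusted p = 0.0026), with DESeq2 (4.09, adjusted p = 0.0027), without robust estimation (4.03, adjusted p = 0.0035) and with the filter of 5 CPM (4.06, adjusted p = 0.0443).

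**Figure D4:**
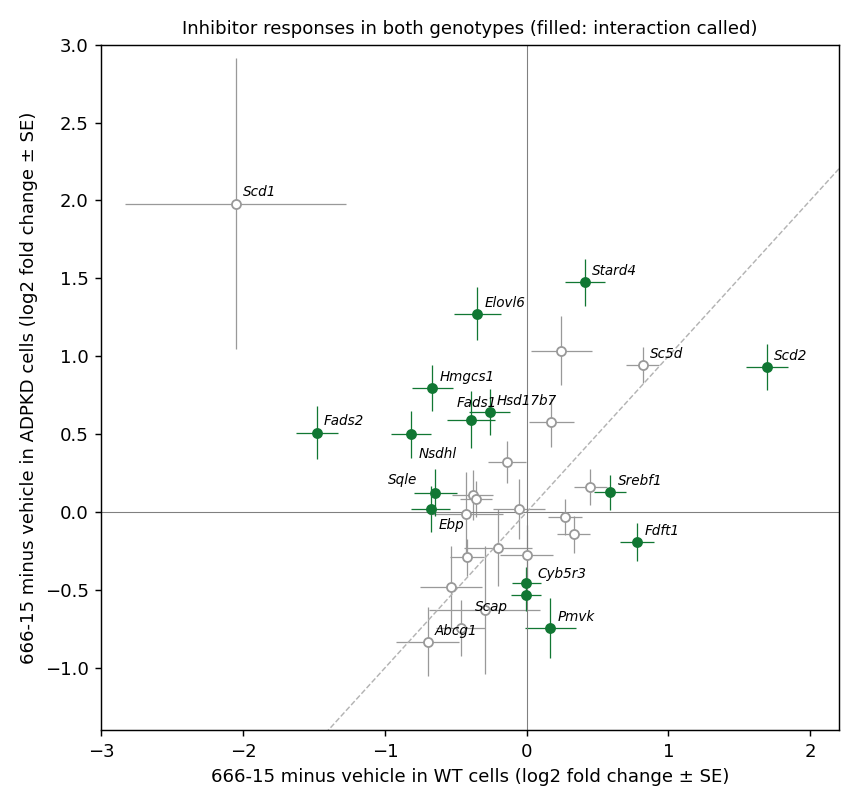
Log2 fold change ± SE of each member with 666-15 in WT cells (x axis) and in ADPKD cells (y axis); the dashed line marks equal responses and filled green points have a called interaction. Fads2, Nsdhl and Hmgcs1 lie in the upper left, lower with the inhibitor in WT and higher in ADPKD cells, and Scd2 and Fdft1 lie below the line at the right.

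With the inhibitor in both genotypes, 19 of the 34 members differed between ADPKD and WT cells, against 46.3% of all genes. They were 12 lower members, against 24.5%, and 7 higher members, against 21.8%. The median log2 fold change was -0.16, against -0.03 over all genes. Lower members included Tm7sf2 (-1.92 ± 0.25), Fads2 (-1.57 ± 0.16), Pmvk (-1.42 ± 0.19), Acat2 (-1.30 ± 0.16), Ebp (-1.19 ± 0.15), Fads1 (-1.04 ± 0.18), Stard4 (-0.85 ± 0.14) and Scd2 (-0.78 ± 0.15), whose calls held under all 17 alternatives. The calls of the remaining lower members did not. Those of Srebf1 (-0.15) and Mvd (-0.40) ended with the GC trend removed. Those of Lss (-0.53) and Insig1 (-0.63) ended without inhibitor-treated ADPKD replicate 1 and replicate 2, respectively. Hmgcs1 was at 113 and 134 CPM in WT libraries, against 142.4 and 141.5 CPM in ADPKD libraries (adjusted p = 0.294). Elovl6 was at 46.5 and 62.7 CPM in WT libraries, against 56.1 and 50.3 CPM in ADPKD libraries, which overlapped (adjusted p = 0.87). Among the higher members only Abca1 (0.70 ± 0.12, adjusted p = 3.86e-04) held its call under all 17 alternatives. The calls of Acaca (6 libraries, to 0.32), Cyb5r3 (7 libraries, to 0.16), Fasn (0.37 without inhibitor-treated ADPKD replicate 1), Msmo1 (2 libraries, to 0.30) and Sqle (2 libraries, to 0.47) ended without single libraries. With the length trend removed the calls of Acaca (0.24) and Fasn (0.24) ended too, and that of Sc5d ended with the GC trend removed (0.29, adjusted p = 0.0515). Without inhibitor-treated WT replicate 2, the library of the other sex, Cyb5r3 was at 0.16, Msmo1 at 0.30 and Acaca at 0.48, and none of these was called.

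A further 30 genes of the same pathways were examined, of which 29 were tested. In vehicle-treated ADPKD cells 18 of these 29 were lower and 3 higher than in WT cells, with a median log2 fold change of -0.51. The shares of all genes were 27.6% lower and 28.8% higher. The falls included Acss2, which makes acetyl-CoA from acetate (91.5 ± 3.0 CPM in WT, 4.21 ± 0.35 CPM in ADPKD cells, -4.44), and Acacb, the mitochondrial acetyl-CoA carboxylase (43.6 ± 2.5 and 5.16 ± 0.62 CPM, -3.08). They also included Nr1h3, which encodes liver X receptor alpha (-3.61, adjusted p = 1.49e-07), and Erlin1, an endoplasmic reticulum protein that restrains SREBP activation (-1.48, adjusted p = 3.89e-07). With the inhibitor in ADPKD cells 7 rose and 3 fell (median 0.10), so that 34.5% were called, against 41.4% of all genes. Mbtps1, which encodes the site-1 protease that releases SREBPs, rose from 62.7 ± 1.2 to 109 ± 3.0 CPM (0.79, adjusted p = 4.07e-05), and Erlin2 rose from 60.1 ± 2.6 to 124 ± 1.7 CPM (1.05, adjusted p = 8.64e-06). In WT cells 1 rose and 7 fell with the inhibitor (median -0.22), so that 27.6% were called, against 25.5% of all genes. Among them Me1, the malic enzyme that supplies NADPH, fell from 152 ± 2.7 to 65.2 ± 7.3 CPM (-1.22, adjusted p = 1.15e-05) and Acss2 to 37.6 ± 0.47 CPM (-1.28, adjusted p = 1.49e-05). The interaction was called for 10 of the 29, or 34.5% against 26.6% of all genes, led by Acss2 (2.40, adjusted p = 8.92e-06). Between genotypes with the inhibitor, 13 were lower and 4 higher in ADPKD cells (median -0.13), or 58.6% called against 46.3% of all genes.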

How the data were processed

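The deposited table held raw counts of reads per gene for 8 libraries, whole numbers that the authors had not normalised. Per the submitters' processing notes, HISAT2 2.1.0, featureCounts 1.6.0, DESeq2 and the mm10 build were used. Per the labels' protocols, RNA was oligo-dT selected, and the text also mentions whole kidney. Annotation release, strandedness and multiply mapped reads are not given in the sources used here. Vehicle columns carried only a genotype and a number and were matched by elimination. Of the gene symbols 53642 matched GENCODE M21 (GRCm38), used for positions and for each gene's longest transcript (length, GC).

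Low genes were dropped with filterByExpr of edgeR 4.0.16 under R 4.3.3 (minimum count 10, minimum total 15), TMM scaled the libraries, and 1 robust quasi-likelihood model was fitted to the 4 groups. All 5 contrasts were two-sided, adjusted by Benjamini-Hochberg over all 17440 genes. The common biological coefficient of variation was 0.138. Alternatives were RLE scaling, no filter, at least 5 CPM in 2 libraries, no robust estimation, the replicate number as a block, the compared groups alone, DESeq2 1.42.0, removal of a GC or length trend per library (lowess, span 0.3) and leaving out each library. Members and lists were chosen with earlier results of these data known. All members and the first 2 genes of each marker list could be named. Of the other pathway genes, those with the 4 smallest p among the called could be named. Xist, Ddx3y, Csf1r, Aqp1, Ass1, Avpr2, Trpm6 and genes sharing exons with members were named after their values were seen. Figures used matplotlib 3.10.9.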

Additional observations from a re-analysis of the deposited data

Results flagged for a closer look

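The inhibitor response differed between the genotypes in 15 members, by the interaction test of the edgeR fit at an adjusted p below 0.05. The values are log2 fold changes in ADPKD cells minus those in WT cells. The response was higher in ADPKD cells for Fads2 (1.99), Elovl6 (1.62), Hmgcs1 (1.46), Nsdhl (1.31), Stard4 (1.06), Fads1 (0.99), Hsd17b7 (0.9), Sqle (0.77) and Ebp (0.7). It was lower in ADPKD cells for Fdft1 (-0.97), Pmvk (-0.91), Scd2 (-0.76), Scap (-0.52), Srebf1 (-0.46) and Cyb5r3 (-0.45). The calls of Elovl6, Fads1, Fads2, Fdft1, Hmgcs1, Hsd17b7, Nsdhl and Stard4 held under all 16 alternatives of the interaction, and those of the other 7 did not. Without single libraries the calls of the latter ended for Sqle (2 libraries, to 0.71), Ebp (4, to 0.61), Pmvk (4, to -0.68), Scd2 (5, to -0.47), Scap (6, to -0.41), Srebf1 (7, to -0.29) and Cyb5r3 (7, to -0.29). With the GC trend removed, Scap (0.013) and Srebf1 (0.038) turned, and Pmvk (-0.49) and Cyb5r3 (-0.11) were no longer called. Of the 16 alternatives the call held in 3 for Srebf1, 5 for Cyb5r3, 8 for Scap and 10 for Pmvk. It held in 11 for Scd2, 12 for Ebp and 14 for Sqle.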

How the results depend on the processing

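Of the called members, 18 of 25 between genotypes with vehicle, 6 of 16 for the inhibitor in ADPKD cells, 6 of 14 in WT cells, 9 of 19 between genotypes with the inhibitor and 8 of 15 in the interaction kept their call and direction under every alternative run. Leaving out single libraries gave 6 to 7 higher and 13 to 20 lower members between genotypes with vehicle, 7 to 12 and 2 to 7 for the inhibitor in ADPKD cells, 4 to 7 and 4 to 9 in WT cells, 3 to 6 and 10 to 13 between genotypes with the inhibitor, and 7 to 11 and 1 to 6 in the interaction. Counts moved by over 1.5 times for the inhibitor in ADPKD cells without inhibitor-treated ADPKD replicate 1 (7 higher, 2 lower) or replicate 2 (3 lower), and in WT cells without vehicle-treated WT replicate 1 (4 lower). The same held between genotypes with the inhibitor without inhibitor-treated WT replicate 2 (4 higher) or inhibitor-treated ADPKD replicate 1 (4 higher) or replicate 2 (3 higher). In the interaction the lower members were 1 without vehicle-treated WT replicate 1 or inhibitor-treated ADPKD replicate 1, 2 without replicate 2 of either group or vehicle-treated ADPKD replicate 1, and 3 without inhibitor-treated WT replicate 1. With the GC trend removed the lower members were 2 for the inhibitor in ADPKD cells and 2 in the interaction, and with DESeq2 the latter were 3; the cause was not tested. Directions turned with the GC trend removed in the interaction for Srebf1 (0.038), Scap (0.013), Srebf2 (0.18) and Mvd (0.26), for Fasn with the inhibitor in ADPKD cells (0.26), for Srebf2 with vehicle (-0.014), and between genotypes with the inhibitor for Srebf2 (0.17) and Acly (0.05), where Nsdhl turned with the length trend removed (0.017). Of these only Srebf1 and Scap had been called. Without single libraries, the inhibitor response in ADPKD cells ranged from -0.53 to 0.078 for Insig1, from -0.35 to 0.0095 for Fdft1 and from -0.26 to 0.0041 for Fasn, and the interaction of Insig1 from -0.53 to 0.083; none of these had been called. Members within 1 SE of 0 were not followed across settings. Same-numbered libraries of different groups did not deviate together (differences between replicates correlated at -0.0034 to 0.0599 between groups over 17440 genes). With the replicate block, 7 members were higher and 18 lower between genotypes with vehicle, 12 and 5 for the inhibitor in ADPKD cells, 6 and 10 in WT cells, 7 and 12 between genotypes with the inhibitor, and 11 and 6 in the interaction.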
